A study of Capra hircus with 2 samples.

Results

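The ZNF genes of the fetal goat ovary were described in germ cells and somatic cells of 2 embryonic stages, E85 and E125, where the number is the embryonic day. A gene was a member when its symbol was ZNF followed by digits and nothing else and when it held 100 or more UMIs over all barcodes of both libraries. A UMI, or unique molecular identifier, marks 1 captured RNA molecule. Of 216 such symbols, 160 passed the minimum, out of 27271 features in all, and 56 did not. The members just inside the minimum were ZNF365 with 107 UMIs, ZNF304 with 102 and ZNF865 with 100, and those just outside were ZNF773 with 99 and ZNF446 and ZNF784 with 97 each. Another 12 symbols carried a letter after the digits and were left out, and 10655 features had no symbol, so further zinc finger genes may stand among them.

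Most ZNF genes encode proteins with Cys2His2 zinc fingers, small loops folded around a zinc ion that read short stretches of DNA. The largest group also carries a KRAB domain, which binds the corepressor TRIM28 and through it the histone methyltransferase SETDB1, so that the bound DNA, often a transposable element or an imprinted region, is packed into heterochromatin. A smaller number of ZNF genes do other work, in cell fate, in chromatin complexes, in splicing and ribosome assembly, or at the mitotic spindle. Germ cells erase DNA methylation during fetal life, and KRAB zinc finger proteins are known, in other settings, for guarding repeats and imprints.

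The study took ovaries of female goat (Capra hircus) fetuses at both stages, around the time primordial follicles form, and made 1 droplet library per stage with a 10x 3' kit, with no treatment or genetic change given in the labels. The dissection protocol names testes, but each sample is labelled as ovary from a female, and that labelling was used. How many animals each library held is not stated, so no spread between animals could be measured, no test was run, and every difference describes these 2 libraries. Stage and library cannot be told apart.

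The E85 library held 4397 barcodes and 17748948 UMIs, the E125 library 8346 barcodes and 49692252 UMIs, and 3825 and 7023 cells were kept. The libraries shared 13 barcodes, 9 of them among kept cells. Germ-cell-like cells numbered 69 and 135, and the named somatic classes together 3496 and 6626. The names rest on marker genes, and the ZNF features were kept out of the clustering. Of 12 germ cell markers (DDX4, DAZL, ZP3, FIGLA and others), 11 had a feature and all 11 were found in the germ-cell-like class at both stages. Of these, 11 at E85 and 10 at E125 reached 0.25 of their highest cluster level there. The 11 markers summed to between 0.370% and 1.35% of their germ-cell-like level in the somatic classes at E85. At E125 they summed to between 0.824% and 1.48% outside the stromal-like class, where they stood at 220.9 against 14722 CPM. ZP3 alone measured 9538 CPM in germ-cell-like cells at E125, so the sums there rest mostly on it. In the other direction, stromal markers stood in the germ-cell-like class at 3.28% of their stromal level at E85 and 2.03% at E125, with DPT at 0, and pregranulosa markers at 10.7% and 6.77%. What part free RNA or attached cells play in the ratios below was not tested. The germ-cell-like class mixed large and small droplets: 22 of 69 at E85 and 75 of 135 at E125 held 20000 or more UMIs, and those droplets gave 1540726 of 1699987 and 10092010 of 10268747 of the class's UMIs.

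Together the members held 250938 UMIs, 0.372% of all UMIs. ZNF292 had 18123, the most of any member, the median was 626.5, and the 10 members with the most UMIs held 39.7% of the sum. Levels below are in CPM, the UMIs of a gene summed over a class and scaled to 1000000 UMIs of that class. UMIs were not scaled by transcript length, so a level is compared with the same gene's level elsewhere. Ranges in parentheses are 95% intervals that cover counting error only.

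ZNF genes took a smaller part of the germ-cell-like RNA than of the RNA of all somatic classes pooled at both stages. At E85 the members summed to 3310 CPM in germ-cell-like cells and 3575 CPM in somatic cells, a ratio of 0.926 (0.901 to 0.952). At E125 they summed to 3367 and 3972 CPM, a ratio of 0.848 (0.838 to 0.858). Stromal-like cells, the connective tissue of the ovary, had the highest share of any class at both stages, 3781 CPM at E85 and 4140 CPM at E125. Pregranulosa-like cells, which surround the oocyte in the forming follicle, followed with 3575 and 3901 CPM. Endothelial-like cells had 3208 and 3931 CPM, and surface-epithelium-like cells 3172 CPM at E85. The germ-cell-like level thus lay inside the range of the somatic classes. At E85 it was above the endothelial-like and surface-epithelium-like levels, with intervals that overlapped, and below the stromal-like and pregranulosa-like levels. At E125, endothelial-like, pregranulosa-like, glia-like (3895 CPM) and perivascular-like cells (3878 CPM) had intervals that overlapped, so their order is not set by these counts. Myeloid-like cells stood lowest among the named classes compared, with 1829 CPM at E85 and 2356 CPM at E125, and lymphoid-like cells had 2726 CPM at E125. From E85 to E125 the share was level in germ-cell-like cells, with a ratio of 1.02 (0.989 to 1.05), and higher by 1.11-fold (1.10 to 1.12) in somatic cells.

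**Figure D1:**
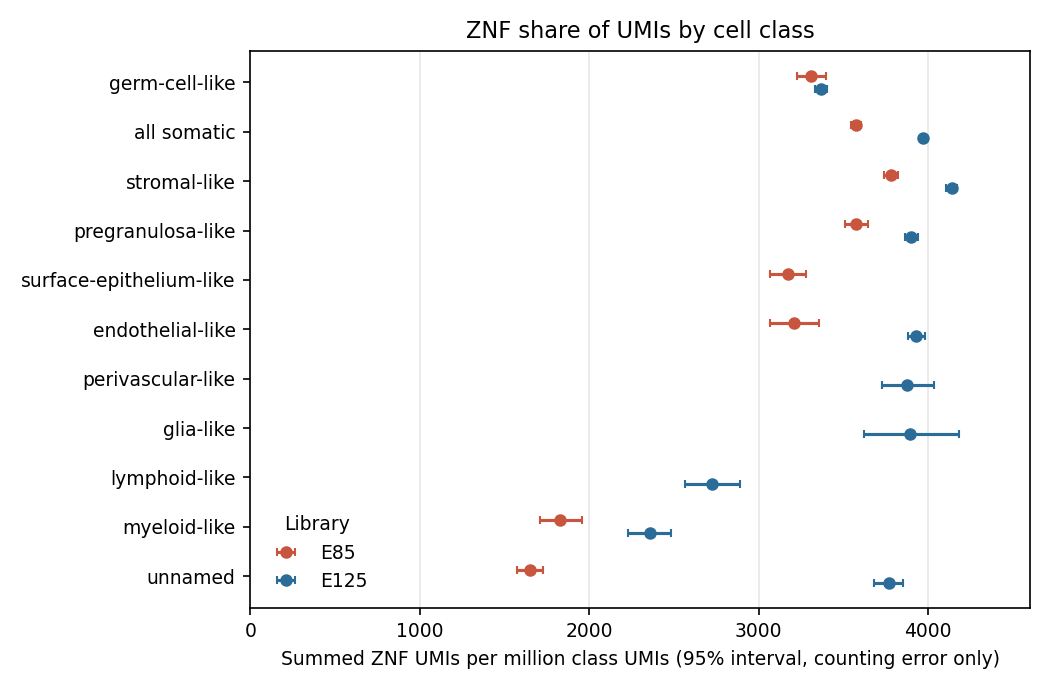
Summed UMIs of the 160 ZNF members per 1000000 UMIs of each cell class (horizontal axis, from 0) for classes of 50 or more cells, in the E85 library (red) and the E125 library (blue), with 95% intervals for counting error. Stromal-like cells sit highest at 3781 and 4140 CPM, and germ-cell-like cells sit at 3310 and 3367 CPM.

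The first comparison asked which ZNF genes differed between germ-cell-like and somatic cells. A member was measured when it had 50 or more UMIs in both sides together, and it was called higher or lower at 2-fold, a rule of size and not a test. Sums under 3 UMIs were set to 3 for the call. At E85, 139 members were measured, 20 were 2-fold or more higher in germ-cell-like cells and 51 were 2-fold or more lower. Over all 9806 features measured, 26.6% were higher and 30% were lower, against 14.4% and 36.7% of the members. At E125 all 160 members were measured, 23 were higher and 62 lower, 14.4% and 38.8%, against 28.5% higher and 34.1% lower of 12626 features. The median log2 ratio of germ-cell-like over somatic was -0.54 at E85 and -0.63 at E125 for the members, and -0.04 and -0.18 for all features. The E85 split moved with the scaling, to 8 higher and 68 lower under TMM factors and 11 and 60 under DESeq2 size factors. The mean over cells gave 11 and 67. The member shares were 5.76% and 48.9%, 7.91% and 43.2%, and 7.91% and 48.2%. All features moved too, to 18.7% and 38.8%, 20.6% and 36.3%, and 23.1% and 34.0%. Without the 10 largest germ-cell-like droplets of each library the E85 split was 18 and 28 of 134 measured members. These are 13.4% and 20.9%, against 22.2% and 21.9% of all features. The class then held 568650 UMIs at E85, so the floor of 3 UMIs was a higher level in CPM. That can keep genes of low somatic level from being called lower, so the share lower is limited by the floor. The median log2 ratio in this setting was -0.23 for members and 0.04 for all features.

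Among members measured, ZNF628 had the highest ratio of germ-cell-like over somatic level at both stages. Its mouse counterpart binds TAF4B, a germ cell form of a subunit of the general transcription factor TFIID, and is needed for sperm formation. At E85 ZNF628 measured 39.4 CPM in germ-cell-like cells from 67 UMIs and 5.79 CPM in somatic cells, 6.81-fold higher (4.84 to 9.56) and 4.50-fold as a mean over cells. At E125 it measured 197 CPM from 2018 UMIs and 9.12 CPM, 21.5-fold higher (19.1 to 24.4). Every somatic class compared at E125 lay between 3.53 CPM in myeloid-like and 12.5 CPM in lymphoid-like cells. The gene was also spread over the droplets and did not come from a few of them. Of the 75 germ-cell-like droplets of 20000 or more UMIs at E125, 74 held a ZNF628 UMI, with a lowest level of 0, a median of 167 and a highest of 558 CPM. By contrast 3.61% of stromal-like cells held one. The large droplets had a median depth of 128983 UMIs and stromal-like cells one of 2843, so these shares of droplets are at unequal depth. At E85, 16 of 22 large droplets held a ZNF628 UMI, with a median of 25.02 and a highest of 104 CPM.

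ZNF653 and ZNF407 showed the same direction at both stages. ZNF653, a transcriptional repressor that binds the steroidogenic factor SF-1, measured 99.4 CPM in germ-cell-like and 16.8 CPM in somatic cells at E85, 5.90-fold higher (4.81 to 7.24). At E125 ZNF653 measured 145 and 32.3 CPM, 4.49-fold higher (4.15 to 4.86), with a UMI in 73 of 75 large droplets and 9.54% of stromal-like cells. ZNF407 measured 27.6 and 5.94 CPM at E85, 4.66-fold higher (3.18 to 6.76), and 2.67-fold higher without the 10 largest droplets. At E125 ZNF407 measured 94.5 and 20.1 CPM, 4.70-fold higher (4.26 to 5.198). Both genes thus lay above their somatic level in either library, with intervals well clear of 1.

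Of the 139 members measured at both stages, 8 were 2-fold or more higher in germ-cell-like cells at both, against 19.2% of all features, and 38 were lower at both, against 24.7%. None of the members changed sides past 2-fold, and of all 9749 features 0.246% and 0.277% did, in the 2 directions. The 8 higher ones were ZNF287, ZNF407, ZNF526, ZNF621, ZNF622, ZNF628, ZNF653 and ZNF687. ZNF622, a factor of late large ribosomal subunit assembly, was in every one of the 22 and 75 large droplets and measured 208 against 96.8 CPM at E85 and 216 against 80.8 CPM at E125. ZNF526 measured 40.0 against 12.8 CPM at E85, 3.12-fold higher (2.32 to 4.15), and 41.9 against 9.70 CPM at E125, 4.32-fold higher (3.73 to 5.01) and 2.85-fold as a mean over cells. ZNF687, part of a zinc finger complex with ZMYND8, was 2.64-fold higher at E85 (1.43 to 4.65) on 17 germ cell UMIs, but 1.94-fold under TMM factors and 1.12-fold as a mean over cells. At E125 ZNF687 was 4.32-fold higher (3.33 to 5.61). ZNF621 was 3.07-fold higher at E85 (1.71 to 5.32) on 19 UMIs and 2.55-fold at E125 (1.74 to 3.71). In all, 114 of the 139 members (82.0%) lay on the same side of 1 at both stages, as did 83.6% of all features.

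**Figure D2:**
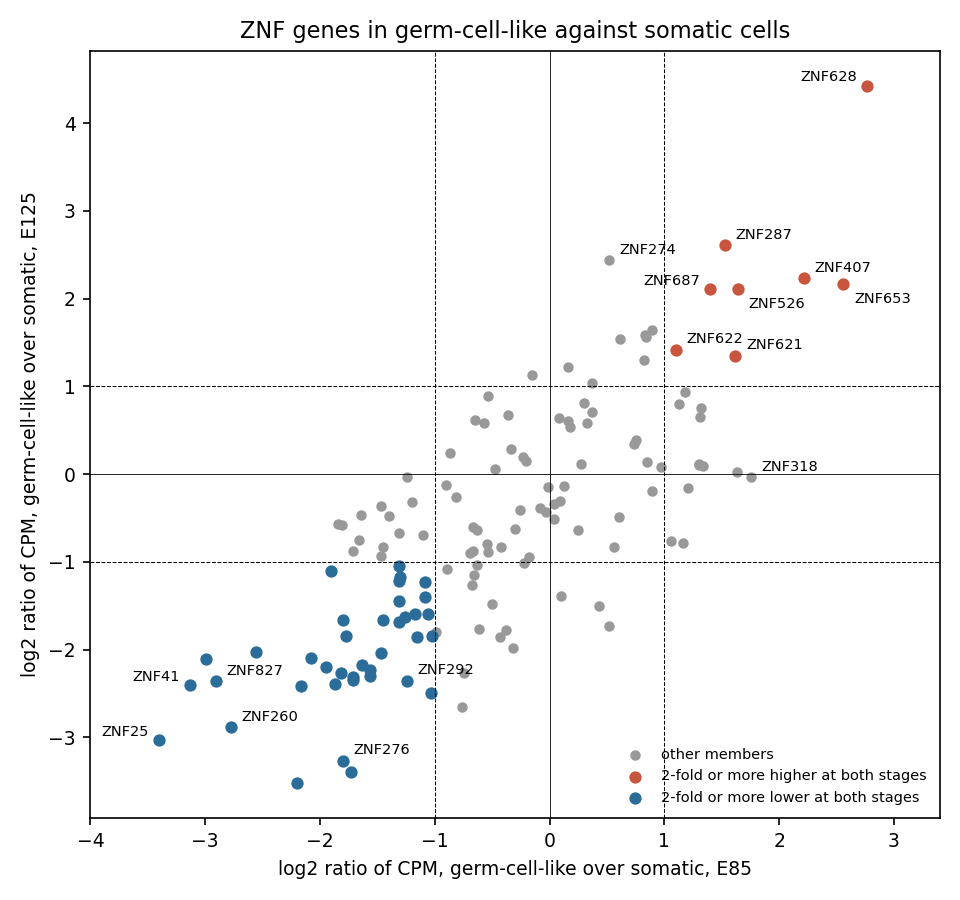
Each point is 1 of the 139 ZNF members measured at both stages, with the log2 ratio of germ-cell-like over somatic CPM at E85 (horizontal) and E125 (vertical). Dashed lines mark 2-fold. The 8 red points are higher at both stages, with ZNF628 at the upper right, and the 38 blue points are lower at both.

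Further members were named for a high germ cell level. ZNF398, which had too few UMIs at E85 for a call, measured 30.4 against 4.62 CPM at E125, 6.57-fold higher (5.40 to 8.03), and its protein is known to interact with oestrogen receptor alpha. ZNF287 measured 42.8 against 7.01 CPM at E125, 6.10-fold higher (5.19 to 7.18) and 3.07-fold as a mean over cells, and 9.41 against 3.26 CPM at E85. ZNF274 brings SETDB1 to the ends of zinc finger genes themselves. At E125 ZNF274 measured 55.4 against 10.2 CPM, 5.43-fold higher (4.74 to 6.23), and at E85 13.5 against 9.42 CPM. ZNF318, a nuclear protein that controls the splicing of immunoglobulin D in B cells, measured 119 against 35.2 CPM at E85, 3.38-fold higher (2.85 to 3.99), and 54.5 against 55.9 CPM at E125. ZNF451, a SUMO ligase, went the same way, with 40.0 against 12.9 CPM at E85, 3.098-fold higher (2.31 to 4.12), and 64.0 against 62.8 CPM at E125. The E85 ratio of ZNF451 was 1.65 as a mean over cells. For ZNF318 the germ cell level was lower and the somatic level higher at E125, whereas for ZNF451 both were higher at E125.

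Genes on the somatic side included several with almost no UMI in germ-cell-like cells. ZNF25 had 3 UMIs there at E85 (1.76 CPM) against 18.6 CPM in somatic cells, a ratio of 0.0948 (0.0194 to 0.280), and 1.36 against 11.2 CPM at E125, a ratio of 0.122 (0.0660 to 0.207). ZNF41 likewise had 3 UMIs at E85 (1.76 against 15.4 CPM, ratio 0.114, 0.0234 to 0.339) and measured 2.82 against 15.0 CPM at E125. ZNF606 had 1 UMI at E85 against 189 in somatic cells, a ratio of 0.0419 (0.00106 to 0.237). Without the 10 largest droplets each of these 3 genes had 1 germ cell UMI at E85, and the ratios were 0.0944 (0.00238 to 0.531), 0.114 (0.00287 to 0.642) and 0.125 (0.00316 to 0.707). As a mean over cells at E125, ZNF25 was 17.1-fold and ZNF41 12.3-fold lower. ZNF260, which works with GATA4 in the heart, measured 4.12 against 28.2 CPM at E85 and 2.53 against 18.7 CPM at E125, 7.37-fold lower at E125 (4.98 to 11.4). At E85 ZNF260 was 4.41-fold lower as a mean over cells and 4.01-fold without the 10 largest droplets. ZNF276 measured 1.66 against 15.9 CPM at E125, 9.62-fold lower (5.95 to 16.6), but 1.54-fold lower as a mean over cells. ZNF827, which recruits the NuRD complex to telomeres, was abundant on the somatic side and low on the other: 21.8 against 164 CPM at E85, 7.52-fold lower (5.44 to 10.7), and 31.0 against 159 CPM at E125, 5.14-fold lower (4.59 to 5.78). ZNF503, ZNF699 and ZNF570 were the other members named at E85, with 2.35 against 13.9, 2.94 against 13.2 and 7.65 against 32.3 CPM. ZNF699 rests on 5 germ cell UMIs, and its direction turned as a mean over cells, where its ratio was 1.78. ZNF570 was 17.3-fold lower in that mean. Without the 10 largest droplets ZNF503 rests on 2 germ cell UMIs, with a ratio of 0.253 (0.0305 to 0.929).

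**Figure D3:**
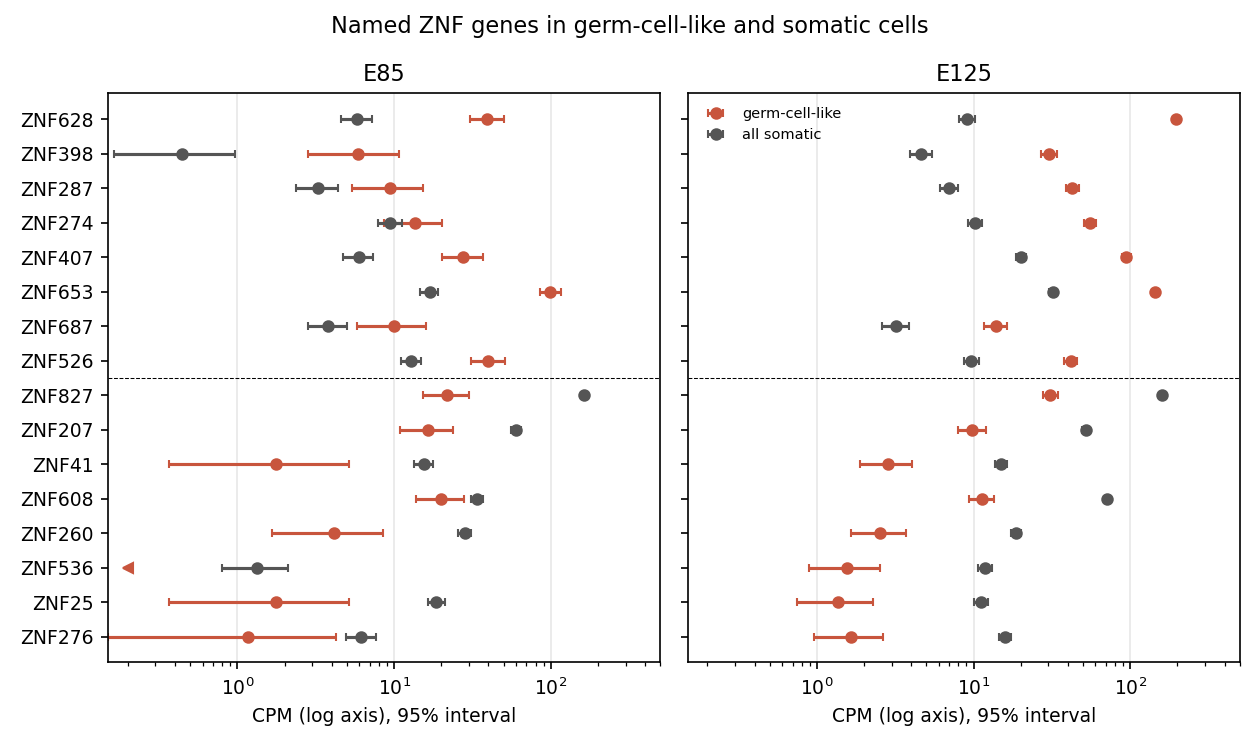
CPM on a log axis of the 8 highest and 8 lowest members of the E125 comparison (above and below the dashed line) in germ-cell-like cells (red) and all somatic cells (grey), at E85 (left) and E125 (right), with 95% intervals for counting error. The arrowhead marks 0 UMIs (ZNF536 at E85), and the interval of ZNF276 at E85 reaches past the axis. ZNF628 moves from 39.4 to 197 CPM in germ-cell-like cells and from 5.79 to 9.12 CPM in somatic cells.

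The members with the most UMIs also changed places between the sides. ZNF292, ZNF644 and ZNF326 together gave 19.6% of somatic ZNF UMIs at E85 and 21.0% at E125, but 12.6% and 7.07% of germ-cell-like ZNF UMIs. ZNF292 measured 111 CPM in germ-cell-like and 261 CPM in somatic cells at E85, and 66.2 and 338 CPM at E125, 5.11-fold lower. In the germ-cell-like class the first place went to ZNF106, an RNA-binding protein, at E85 (297 against 118 CPM in somatic cells) and to ZNF444 at E125 (230 against 132 CPM). At E125 ZNF106 measured 157 and 147 CPM. Of the 10 members with the most UMIs, 3 were higher and 4 lower in germ-cell-like cells at E85, against 26.6% and 30% of all features. At E125, 1 was higher and 7 lower, against 28.5% and 34.1%. These 10, with ZNF292, ZNF644 and ZNF326 among them, have the most UMIs over all barcodes, and most of those UMIs are somatic. That choice favours genes high in somatic cells, and all features were not picked in this way, so the counts are no result about the members. Across the 160 members the order of the levels was shared in part: Spearman's rho between germ-cell-like and somatic CPM was 0.722 at E85 and 0.733 at E125, and between stages 0.873 in germ-cell-like and 0.873 in somatic cells. These are across genes, which are not independent replicates, and each pair of sides shares a library or a class.

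Large germ-cell-like droplets were chosen for 20000 or more UMIs, so a higher count of most genes per droplet is part of that choice. In the large germ-cell-like droplets at E125, all 160 members had more UMIs per droplet than per stromal-like cell, with a median ratio of 25.03. At E85 this held for 152 of 160, with a median ratio of 17.0, and the other 8 had no UMI in the 22 large droplets. The mean depth of the large droplets was 41.7 times that of stromal-like cells at E125 and 23.7 times at E85. Of all 12072 features with 100 or more UMIs, 97.5% had more UMIs per large droplet at E125 and 91.0% at E85, with median ratios of 38.2 and 25.9. The large droplets at E125 held between 44 and 116 different members, with a median of 90, and between 76 and 927 ZNF UMIs, with a median of 434. Those at E85 held between 21 and 107 members, with a median of 62.5. The ZNF share of single large droplets ran from 1472 through a median of 3375 to 6883 CPM at E85 and from 2368 through 3357 to 5443 CPM at E125. Small germ-cell-like droplets lay lower at E85, with 2587 CPM (2343 to 2849) over 47 droplets, and higher at E125, with 3859 CPM (3575 to 4159) over 60. At E85 1 of the 22 large droplets had no ZP3 UMI and 1 had no FIGLA UMI, whereas all 75 at E125 held both of these oocyte genes.

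With every cell thinned to 2000 UMIs, germ-cell-like cells held a mean of 5.08 different members at E85 and stromal-like cells 6.77, a ratio of 0.749, after 16 and 675 shallower cells were left out. At E125 the means were 6.81 and 7.39, a ratio of 0.921, with 32 and 1107 cells left out. Without thinning the medians were 8 members per germ-cell-like and 9 per stromal-like cell at E85, and 60 and 10 at E125. Thinned to 5000 UMIs, which leaves 31 germ-cell-like and 197 stromal-like cells, the E85 ratio was 0.955.

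Members were next ordered by what their proteins do, from 3 lists. The development and cell fate list has 13 genes with a feature, of which 8 were measured at E85 and 9 at E125. None was 2-fold or more higher in germ-cell-like cells at either stage, and 3 and 6 were lower, beside 26.6% higher and 30% lower of all features at E85 and 28.5% and 34.1% at E125. The median log2 ratio of the measured genes of the list was -0.64 at E85 and -1.86 at E125, beside -0.04 and -0.18 for all features. ZNF148, a Krüppel-like regulator, measured 31.2 against 102 CPM at E85 and 21.9 against 109 CPM at E125. ZNF462, known for brain and embryo development, measured 8.24 against 24.4 CPM and 7.30 against 34.5 CPM. ZNF521, a progenitor cell factor, was 13.0 against 47.3 CPM at E125, and 23.5 against 31.8 CPM at E85. ZNF423, a partner of SMAD proteins and early B-cell factors, measured 11.8 against 18.5 CPM at E85 and 30.3 against 19.8 CPM at E125.

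The list of genes for RNA, protein and spindle work has 9 genes with a feature, 8 measured at E85 and 9 at E125. It split at both stages, with 2 higher and 1 lower at E85 and 2 higher and 2 lower at E125. All features gave 26.6% higher and 30% lower at E85 and 28.5% and 34.1% at E125. The median log2 ratios of the list were -0.11 and 0.11. ZNF622 and ZNF593, both known for assembly of the large ribosomal subunit, lay on the germ cell side. ZNF593 was 1.53-fold higher at E85 and 2.92-fold higher at E125, with 110 against 37.6 CPM. ZNF330, a nucleolar protein, measured 141 against 57.1 CPM at E85 and 71.1 against 65.7 CPM at E125. ZNF207, which loads the checkpoint protein BUB3 onto kinetochores, measured 16.5 against 60.0 CPM at E85 and 9.84 against 51.8 CPM at E125, 5.27-fold lower (4.31 to 6.51). As a mean over cells the E125 value was 2.01-fold lower. ZNF326, part of a complex that links RNA polymerase II to splicing, measured 139 against 222 CPM at E85 and 90.8 against 219 CPM at E125.

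In the list for chromatin and transcription complexes, 16 of 17 genes were measured at each stage. At E85, 3 were higher and 6 lower, and at E125, 1 was higher and 8 lower, beside 26.6% and 30%, and 28.5% and 34.1%, of all features. The median log2 ratio was -0.31 at E85 and -0.98 at E125. The 1 higher at E125 was ZNF687. Among the lower ones, ZNF644, a partner of the histone methyltransferases EHMT1 and EHMT2, measured 167 against 218 CPM at E85 and 81.1 against 278 CPM at E125. ZNF608 had a log2 ratio of -0.76 at E85 and measured 11.3 against 70.9 CPM at E125, 6.27-fold lower at E125 (5.21 to 7.63). ZNF410, known for driving CHD4, measured 11.8 against 8.24 CPM at E85 and 2.05 against 6.77 CPM at E125. ZNF541, a meiosis gene of this list, had 5 UMIs in all and is no member.

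The protein partners of KRAB zinc finger genes were described from a list of 32 symbols for corepressors and heterochromatin, 25 of them with a feature. At E85, 24 were measured, 5 were 2-fold or more higher in germ-cell-like cells and 6 lower. At E125 5 were higher and 10 lower of 25. All features gave 26.6% higher and 30% lower at E85 and 28.5% and 34.1% at E125. The list's median log2 ratio was -0.22 at E85 and -0.72 at E125. TRIM28, the corepressor itself, measured 44.7 against 96.1 CPM at E85 and 67.3 against 111 CPM at E125. SETDB1 measured 16.5 against 19.7 CPM and 9.64 against 12.1 CPM. SUV39H1, another H3K9 methyltransferase, lay far on the other side, with 25.9 against 5.56 CPM at E85 and 74.3 against 8.46 CPM at E125, 8.78-fold higher. UHRF1, which brings DNMT1 to newly copied DNA, measured 90.6 against 23.8 CPM and 77.6 against 23.5 CPM, while DNMT1 measured 45.3 against 123 CPM and 58.9 against 97.3 CPM. MPHOSPH8 of the HUSH silencing complex measured 289 against 168 CPM and 384 against 181 CPM, and its partner TASOR 68.8 against 79.7 CPM and 24.8 against 81.6 CPM. CBX5, which encodes the heterochromatin protein HP1 alpha, measured 42.4 against 197 CPM and 27.7 against 143 CPM.

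ZNF445 and ZFP57 were singled out after their values were seen, because both proteins are known for keeping methylation at imprinted genes. ZNF445 measured 4.12 against 14.1 CPM at E85, a ratio of 0.292 (0.116 to 0.614), and 3.21 against 11.5 CPM at E125, a ratio of 0.278 (0.189 to 0.398). ZFP57 had no UMI in germ-cell-like cells of either library, against 16 in somatic cells at E85 and 119 at E125. With its germ cell sum set to the floor of 3 UMIs, ZFP57 was 12.3-fold lower at E125, a value that is no lower bound. The E85 count is too low for a comparison.

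Related zinc finger families were counted in the same way, beside 26.6% higher and 30% lower of all features at E85 and 28.5% and 34.1% at E125. Of 30 ZBTB genes, which carry a BTB domain, 2 were higher and 7 lower of 20 measured at E85, and 3 higher and 13 lower of 30 at E125. Of 12 ZSCAN or ZKSCAN genes, which carry a SCAN domain, 1 was higher and 6 lower of 11 at E85, and 0 higher and 5 lower of 12 at E125. Of 14 genes named ZFP, 2 were higher and 8 lower of 11 at E85, and 2 higher and 11 lower of 14 at E125. The ZFP genes on the germ cell side were ZFP1 and ZFP64 at both stages. The median log2 ratios were -0.30, -1.08 and -1.85 for the 3 families at E85, beside -0.54 for the ZNF members, and -0.93, -0.51 and -1.46 at E125, beside -0.63. No test compared the families, so whether any of these values is particular to the ZNF symbols was not tested.

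KRAB zinc finger genes often lie in tandem arrays, so members were placed by their neighbours in the RefSeq gene table of goat assembly ARS1.2, which may not be the build of the counts. There 51 members lay next to a named zinc finger gene, 87 next to none, and 22 were not matched. At E125, 7 of the 51 were higher in germ-cell-like cells and 20 lower, with a median log2 ratio of -0.75. Of the 87, 14 were higher and 35 lower, with a median of -0.46, beside 28.5% higher and 34.1% lower of all features. At E85 the medians lay closer. Beside a zinc finger gene, 4 of 42 measured were higher and 15 lower, with a median of -0.52. Beside none, 15 of 76 were higher and 26 lower, with a median of -0.48, against 26.6% and 30% of all features. The table gave 16 pairs of members that lie side by side. In 9 of these (56.3%) both genes lay on the same side of 1 at E125, while 54.2% of all pairs of members did. ZNF398 had a log2 ratio of 2.72 at E125, while its neighbour ZNF282 had -2.19 and ZNF786, on its other side, had 1.13.

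Among somatic classes a few members stood out against all other named cells of their library. ZNF366, known from dendritic cells as a corepressor, marked endothelial-like cells with 46.1 CPM at E85 and 115 CPM at E125. The latter was 15.5-fold above all other cells (13.4 to 17.8). ZNF366 was as high in myeloid-like cells, 41.7 and 118 CPM, yet measured 0.0986 CPM in pregranulosa-like and 0.593 CPM in stromal-like cells at E125, where each class held far more UMIs. In germ-cell-like cells ZNF366 measured 6.47 and 19.7 CPM. Endothelial markers stood there at 0.536% and 0.571% of their endothelial level and myeloid markers at 0.0666% and 0.168% of theirs. Where the ZNF366 UMIs of germ-cell-like cells come from was not tested. ZNF423 was the second leading member of endothelial-like cells at both stages, with 64.8 and 66.3 CPM, 4.10-fold and 4.27-fold above other cells. ZNF521 measured 81.9 and 106 CPM in the same class.

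ZNF536, which restrains neuronal differentiation, was high in glia-like and pregranulosa-like cells at E125. It measured 147 CPM in glia-like cells from 29 UMIs, 16.8-fold above other cells (11.1 to 24.5), and 24.8 CPM in pregranulosa-like cells, 5.29-fold above others (4.32 to 6.50). ZNF536 had no UMI in endothelial-like and lymphoid-like cells of that library. At E85 it measured 2.03 CPM in pregranulosa-like and 1.46 CPM in stromal-like cells. ZNF704 led the stromal-like class at both stages, with 13.0 CPM at E85 and 84.3 CPM at E125, and the perivascular-like class at E125 with 94.4 CPM, against 11.1 CPM in pregranulosa-like cells.

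Other leading members were less far from the rest. In pregranulosa-like cells ZNF473, which acts in processing of histone messages, measured 19.0 CPM at E85, 4.93-fold above other cells (3.29 to 7.43), and ZNF684 32.5 CPM, 2.58-fold (1.98 to 3.35). ZNF84 took their place at E125 with 13.6 CPM, 2.24-fold (1.79 to 2.79). ZNF449 measured 21.8 CPM in stromal-like cells at E85, 2.37-fold above others, and ZNF503 14.5 CPM at E125, 2.74-fold. In lymphoid-like cells at E125 ZNF143, which drives small nuclear RNA genes, measured 60.1 CPM, 2.64-fold (1.68 to 3.95). In surface-epithelium-like cells at E85 no member with 20 or more UMIs and 10 CPM was past 2-fold, with ZNF692 highest at 63.7 CPM and 1.92-fold (1.47 to 2.47).

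**Figure D4:**
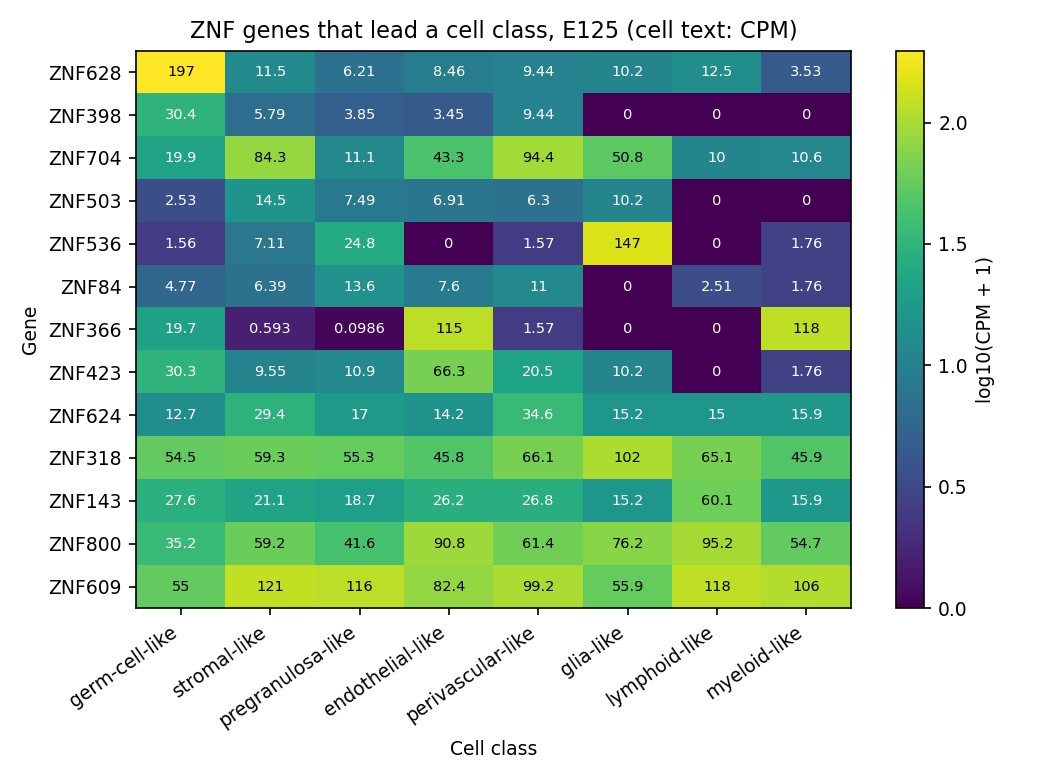
CPM at E125 (printed in each box) of the members with the highest ratio to all other named cells in each class of 50 or more cells. The colour is log10(CPM + 1). ZNF628 stands at 197 CPM in germ-cell-like cells, ZNF366 at 115 and 118 CPM in endothelial-like and myeloid-like cells, and ZNF536 at 147 CPM in glia-like cells.

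The second comparison set E125 against E85 within cell types. In germ-cell-like cells 100 members were measured, 17 were 2-fold or more higher at E125 and 16 lower, 17% and 16%, against 19.4% and 17.6% of 9066 features. The members' median log2 ratio was -0.04 and that of all features -0.07. This split was not stable: TMM factors gave 22 higher and 7 lower of the 100, DESeq2 size factors 20 and 7, and the mean over cells 40 and 9. All features moved the same way, to 25.2% and 11.6% under TMM, 24.7% and 11.9% under DESeq2 and 32.5% and 15.9% as a mean over cells. In somatic cells 15 of 157 measured members were higher and 16 lower, 9.55% and 10.2%, against 17.9% and 12.1% of all features, with TMM factors giving 19 and 12. The median log2 ratio there was -0.26 for members and -0.03 for all features. Of the 157, 126 lay within 2-fold between the libraries, while the summed share was higher at E125. Class by class, 15 of 77 measured members were higher and 1 lower in endothelial-like cells, against 19.2% and 7.5% of features. In pregranulosa-like cells 13 of 118 were higher and 12 lower, against 12.9% and 11.9%, and in stromal-like cells 15 of 148 were higher and 16 lower, against 17.8% and 11%.

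Among members with 10 CPM or more in 1 library, ZNF444 differed most between the stages in germ-cell-like and in somatic cells. It measured 27.6 CPM at E85 and 230 CPM at E125 in germ-cell-like cells, 8.33-fold higher (6.24 to 11.4), and 12.6 and 132 CPM in somatic cells, 10.5-fold higher (8.98 to 12.3). Of 63 members measured in each of germ-cell-like, pregranulosa-like, stromal-like and endothelial-like cells, 3 were 2-fold or more higher at E125 in all 4, ZNF407, ZNF444 and ZNF704, against 5.09% of features, and 1 was lower in all 4, ZNF24, against 2.35%. ZNF444 was 9.91-fold higher in pregranulosa-like, 10.2-fold in stromal-like and 19.3-fold (7.52 to 71.1) in endothelial-like cells, the last on 4 UMIs at E85. ZNF407 was 3.42-fold higher in germ-cell-like, 2.72-fold in pregranulosa-like and 3.34-fold in stromal-like cells. Endothelial-like cells held no ZNF407 UMI at E85, and with that sum set to the floor of 3 UMIs the ratio was 4.59. ZNF24, a factor of myelinating cells, was 3.75-fold lower in germ-cell-like (2.84 to 4.94), 2.34-fold in pregranulosa-like, 2.26-fold in stromal-like and 2.47-fold in endothelial-like cells.

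The named stage differences in germ-cell-like cells are given beside the somatic ratios, and the difference between the 2 was not tested. ZNF628 was 4.99-fold higher at E125 in germ-cell-like cells (3.91 to 6.46) and 1.58-fold (1.23 to 2.05) in somatic cells. ZNF274 was 4.10-fold (2.70 to 6.51) and 1.08-fold (0.881 to 1.34) higher, and ZNF287 4.54-fold (2.77 to 8.02) and 2.15-fold (1.55 to 3.04). ZNF398 was 5.17-fold (2.77 to 10.9) higher in germ-cell-like cells on 10 UMIs at E85, and 10.4-fold (4.66 to 28.7) in somatic cells on 6. ZNF358 was 4.04-fold higher (2.28 to 7.91) in germ-cell-like and 1.88-fold (1.64 to 2.16) in somatic cells, and ZNF618, a partner of UHRF2, 3.64-fold (2.21 to 6.44) and 1.92-fold (1.71 to 2.17). On the other side, ZNF507 was 3.98-fold lower at E125 in germ-cell-like cells (2.94 to 5.35), with a somatic ratio of 0.972 (0.843 to 1.12). ZNF624 was 3.30-fold lower (2.43 to 4.44), with a somatic ratio of 0.792. As a mean over cells the germ cell stage ratios were larger for several of these, 19.9 for ZNF444, 8.19 for ZNF628, 8.77 for ZNF358, 8.06 for ZNF618 and 7.04 for ZNF287, while ZNF24 was 7.003-fold and ZNF572 5.11-fold lower. Without the 10 largest droplets the ratio of ZNF407 was 5.90. ZNF624 was 1.53-fold lower and ZNF471 1.29-fold lower as a mean over cells, and ZNF655 and ZNF740, both lower at E125 in the sums, turned to ratios of 1.22 and 1.35 there.

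In somatic cells the largest ratios after ZNF444, among members with 10 CPM or more in 1 library, were those of ZNF536 (1.34 to 11.8 CPM, 8.87-fold, 5.54 to 15.1), ZNF366 (3.49 to 22.5 CPM, 6.45-fold, and 13.0-fold with clusters at resolution 2), ZNF704 (8.76 to 52.2 CPM, 5.96-fold) and ZNF451 (12.9 to 62.8 CPM, 4.87-fold). The classes led by ZNF366 and ZNF536 also differed in size: endothelial-like cells were 2.22% of kept cells at E85 and 10.7% at E125, and glia-like cells 0.0784% and 1.08%, and their part in these ratios was not tested. Within stromal-like cells ZNF536 was 4.87-fold higher at E125. The lowest ratios were those of ZNF32 (67.4 to 22.5 CPM, 2.99-fold lower, 2.71 to 3.30), ZNF524, ZNF12, ZNF24 and ZNF414, the last 2.09-fold lower and 1.998-fold under TMM factors.

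**Figure D5:**
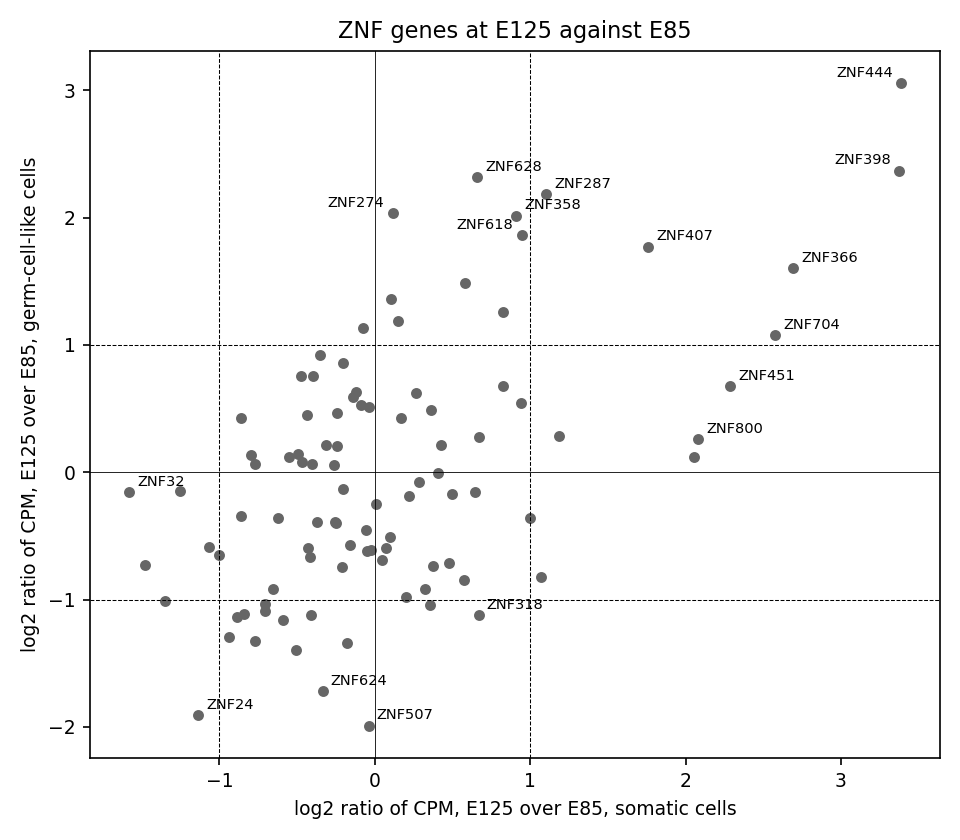
Each point is 1 of the 97 ZNF members measured in both stage comparisons, with the log2 ratio of E125 over E85 CPM in somatic cells (horizontal) and germ-cell-like cells (vertical). Dashed lines mark 2-fold. ZNF444 lies at the upper right in both, ZNF628 and ZNF274 are past 2-fold in germ-cell-like cells alone, and ZNF24 is past 2-fold lower in both.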

How the data were processed

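Deposited values are raw UMI counts from Cell Ranger, version 6.0.0 in the matrix headers and 3.1 in the submitters' processing notes, which the authors left unscaled. The genome build is not given in the sources used here. Every value was computed from these deposited counts.

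Cells with under 500 genes or over 20% mitochondrial UMIs were left out (425 at E85, 809 at E125), as were the barcodes with the top Scrublet scores, 155 (3.53%) and 557 (6.67%). Scrublet's own threshold marked 2 and 0 barcodes, so it had not worked, and some doublets will remain. Kept cells had median depths of 3102 and 3193 UMIs. Both libraries were clustered together with scanpy 1.11.5 (2000 variable genes without ZNF symbols, 30 components, 15 neighbours, Leiden resolution 1). A cluster of 15 or more cells took the class with the highest mean marker share, if that was at least 0.3 with at least 3 markers at 0.25 or more, and smaller ones took the name of the same cluster in the other library. This rule came from earlier work on these data, and other rules would move the classes.

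Counts were summed per class and library. Sums carry exact Poisson, and ratios exact conditional, 95% intervals. There is no test, and the ratio rule was checked on generated counts. Named members were the 8 highest and 8 lowest ratios in each germ cell comparison and the 5 highest and lowest in the somatic stage comparison (50 UMIs in both sides, 10 CPM in 1), the 5 with the highest CPM on each side, the 2 leading each class of 50 or more cells (20 UMIs, 10 CPM), and the fixed lists. Members and lists were chosen with earlier results of these data known. Scaling alternatives used edgeR 4.0.16 (TMM) and DESeq2 1.42.0. RefSeq names of assembly ARS1.2 gave neighbours only. Protein features were not analysed here.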

Additional observations from a re-analysis of the deposited data

Results flagged for a closer look

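Cells that took no class name entered no comparison, yet they held ZNF UMIs. At E85, 260 unnamed cells (median 3832 UMIs, median mitochondrial share 8.45%) had a ZNF level of 1651 CPM (1576 to 1727), below each named class of 50 or more cells. At E125, 262 unnamed cells (median 3884 UMIs, median mitochondrial share 7.54%) had 3767 CPM (3683 to 3853), between the germ-cell-like level and the somatic level. The cells without a name are different clusters in the 2 libraries, so these values are no comparison of stages.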

How the results depend on the processing

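Of 216 recomputed summary values, 183 stayed close to those reported. At E85, members higher in germ-cell-like cells numbered 8 under TMM factors, 11 under DESeq2 size factors and 11 as a mean over cells, and the median log2 ratio was -0.98, -0.86 and -0.90. These counts are 5.76%, 7.91% and 7.91% of members, against 18.7%, 20.6% and 23.1% of all features. The medians of all features were -0.48, -0.36 and -0.26. Without the 10 largest germ-cell-like droplets, 28 members (20.9%) were lower, against 21.9% of all features. The median there was -0.23, against 0.04 for all features. TMM moved the median of all features by -0.44 at E85, -0.17 at E125, 0.26 in the germ cell stage comparison and 0.07 in the somatic one. Over the alternatives the members' median was below that of all features by 0.28 to 0.64 at E85 and 0.32 to 0.69 at E125. TMM and DESeq2 factors shift all genes alike and cannot change this gap, so only the other alternatives bear on it.

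For germ-cell-like cells at E125 against E85, members lower numbered 7 under TMM, 7 under DESeq2, 7 with 100 UMIs or more and 9 as a mean over cells, where 40 were higher. The member shares lower were 7%, 7%, 10.3% and 9%, against 11.6%, 11.9%, 15.8% and 15.9% of all features. In the mean over cells 32.5% of all features were higher. The median log2 ratio was 0.22 under TMM, 0.61 as a mean over cells and 0.28 without the 10 largest droplets. In that mean, ZNF699 (E85), ZNF655 and ZNF740 (stage) reversed, to ratios of 1.78, 1.22 and 1.35. With a minimum of 100 UMIs 14 members were higher. In somatic cells, 29 were lower at E125 with no cell filter, DESeq2 gave 20 higher and 12 lower, and with no filter 16 were higher.

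The share ratio of germ-cell-like over somatic cells was 0.897 with no cell filter, 0.886 without the 10 largest droplets, 0.876 against stromal-like cells and 0.966 with unnamed cells counted as somatic at E85. At E125 it was 0.883 under the stricter filter, 0.876 with no filter, 0.876 without the 10 largest droplets and 0.813 against stromal-like cells. The stage ratio in germ-cell-like cells was 1.05 with no filter and 1.10 without the 10 largest droplets. In somatic cells it was 1.08 at resolution 2, 1.09 under the stricter filter, 1.07 with no filter, 1.10 in stromal-like cells and 1.16 with unnamed cells counted, where 18 members were higher and 12 lower. Thinning to 5000 UMIs gave 0.955 for members per cell at E85. The causes were not tested.

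Of 58 named ratios past 2-fold, 48 kept 2-fold and 55 their direction in every alternative. Counting unnamed cells as somatic was chosen after seeing the data. The stricter filter left no germ-cell-like class at E85 and so no value there, and the split by protein features was not run. No paired analysis was possible because each stage has 1 library. ZNF25, ZNF41 and ZNF606 had 1 germ cell UMI each at E85 without the 10 largest droplets.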
